A study of Mus musculus with 10 samples.

Results

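The cell cycle and proliferation genes described here are 42 genes listed by their known roles, and no measured value enters the rule that selects them. The list was, however, chosen with earlier results of these data known. All 42 were found among the 31053 genes of the deposited count matrix. They comprise 16 genes that act before and during DNA synthesis (called S-phase members), 23 genes that act at mitosis (called G2/M members) and 3 broadly expressed genes that rise in dividing cells, namely Stmn1, Hmgb2 and Tubb5. The 16 S-phase members hold 10 genes of replication licensing and the replication fork (Mcm2, Mcm3, Mcm4, Mcm5, Mcm6, Mcm7, Pcna, Gins2, Cdc6, Cdt1), 5 of nucleotide supply (Rrm1, Rrm2, Tyms, Dut, Tk1) and Uhrf1, which maintains DNA methylation behind the fork. The 23 G2/M members hold 7 mitotic kinases and cyclins (Cdk1, Ccna2, Ccnb1, Ccnb2, Aurka, Aurkb, Plk1), 5 genes of the centromere, kinetochore and passenger complex (Cdca8, Birc5, Cenpa, Cenpe, Cenpf), 4 of the spindle checkpoint and the anaphase-promoting complex (Cdc20, Bub1, Bub1b, Ube2c), 4 of the spindle and cytokinesis (Nusap1, Tpx2, Kif11, Kif23), 2 of mitotic chromosome structure (Mki67, Top2a) and the mitotic entry gene Cdca3.

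The genes were measured by single-cell RNA sequencing (10x Genomics) of CD45+ immune cells sorted from whole mouse brain, with 1 library made from a pool of 3 mice for each genotype and age. WT and Nlrp3KO mice were profiled at 3, 6 and 9 months of age, and APP/PS1 and Nlrp3KO APP/PS1 mice at 3 and 9 months, which gives 10 libraries. Nlrp3KO mice lack the inflammasome sensor Nlrp3 in all cells, and APP/PS1 mice carry transgenes for mutant amyloid precursor protein and mutant presenilin-1 expressed in neurons. "Non-diseased" stands for the WT and Nlrp3KO libraries, and "Nlrp3WT" for WT and APP/PS1. The 3 ages were also 3 batches. Age therefore cannot be told apart from batch, and each p-value below measures the spread between pooled libraries, not between mice. All libraries were dissociated in the presence of actinomycin D, a blocker of transcription.

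Of the 45472 cells used, 40547 were microglia in the authors' annotation, with 1755 to 8208 microglia and 9357431 to 35107144 microglial UMIs (unique molecular identifiers, each counting 1 captured transcript) per library. The Nlrp3 check followed the labels, with 390 to 1425 Nlrp3 UMIs in the microglia of each Nlrp3WT library and 0 in each of the 5 Nlrp3KO libraries. Of 45225 distinct barcodes, 246 occurred in more than 1 library. Levels below are CPM, the UMIs of a gene scaled to 1000000 UMIs of the cells named. The microglial markers P2ry12, Tmem119, Sall1 and Fcrls were all detected in the microglia. The 3' chemistry counts transcripts without regard to their length.

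A dividing cell first loads the MCM helicase on its origins, raises its nucleotide pool and copies its DNA, which needs the S-phase members. It then makes mitotic cyclins, kinases, spindle motors and kinetochore proteins, whose genes are repressed in resting cells. Adult microglia are long-lived, renew themselves by local division at a low rate, and are known to divide more around amyloid plaques.

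The 2 phases have promoter elements of their own. E2F factors bind short GC-rich sites in front of S-phase genes, whereas G2/M genes typically carry CCAAT boxes, bound by NF-Y, and a cell cycle homology region (CHR), bound by the DREAM and MuvB complexes. The 250 bases before the start of 4 members are given here, 5′ to 3′ on the strand of the gene, from RefSeq on GRCm38.p6, as examples of genes that had nearly all their microglial UMIs in a small set of cells in the levels that follow (Mki67 and Top2a) and of genes that did not (Mcm3 and Mcm6). Mcm6 was picked for the E2F letters in its window, so its matches do not stand for S-phase members at large. Capitals mark matches on either strand. A CHR was searched as TTTGAA and, in a variant form, also as the letters TTCGAA. The box of NF-Y was searched by the letters in its name. An E2F site was searched as TTTGGCGC, TTTCCCGC, TTTCGCGC or TTTGCCGC, and overlapping matches were counted apart.
Mki67, chr7:135716380-135716629, minus strand: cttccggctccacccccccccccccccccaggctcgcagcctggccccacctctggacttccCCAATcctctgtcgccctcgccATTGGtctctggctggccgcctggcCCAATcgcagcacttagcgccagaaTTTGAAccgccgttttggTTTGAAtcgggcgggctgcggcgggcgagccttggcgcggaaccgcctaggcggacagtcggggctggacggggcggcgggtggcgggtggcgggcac
Top2a, chr11:99024190-99024439, minus strand: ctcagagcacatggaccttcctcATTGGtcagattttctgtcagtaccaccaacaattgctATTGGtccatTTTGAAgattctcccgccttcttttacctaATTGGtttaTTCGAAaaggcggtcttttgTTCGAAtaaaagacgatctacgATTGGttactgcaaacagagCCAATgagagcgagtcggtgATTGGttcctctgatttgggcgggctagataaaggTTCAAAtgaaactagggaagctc
Mcm3, chr1:20820313-20820562, minus strand: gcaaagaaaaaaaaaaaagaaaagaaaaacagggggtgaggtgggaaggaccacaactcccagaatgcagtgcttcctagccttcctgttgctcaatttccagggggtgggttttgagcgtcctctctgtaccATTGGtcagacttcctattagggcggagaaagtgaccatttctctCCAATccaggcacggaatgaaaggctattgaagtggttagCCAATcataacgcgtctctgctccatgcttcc
Mcm6, chr1:128359706-128359955, minus strand: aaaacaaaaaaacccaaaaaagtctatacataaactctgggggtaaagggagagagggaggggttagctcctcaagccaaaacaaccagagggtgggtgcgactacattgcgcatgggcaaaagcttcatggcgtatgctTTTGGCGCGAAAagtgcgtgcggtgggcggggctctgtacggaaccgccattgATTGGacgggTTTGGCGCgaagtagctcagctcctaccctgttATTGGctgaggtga
The Mki67 window held 2 CHR and 3 CCAAT matches and the Top2a window 4 CHR and 6 CCAAT matches, with 0 E2F matches in either. The Mcm3 window held 3 CCAAT matches and the Mcm6 window 2 CCAAT matches and 3 E2F matches, some of which overlap, with 0 CHR matches in either.

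A window was at hand for 36 of the 42 members. A CCAAT box was found in 18 of 20 G2/M windows (90.0%) and in 11 of 16 S-phase windows from 14 genes (68.8%), against 33.8% of all 32851 windows. A CHR was found in 8 of 20 G2/M windows (40.0%) and 2 of 16 S-phase windows (12.5%), against 17.1% of all windows, and each of these 10 windows also held a CCAAT box, a combination present in 6.02% of all windows. E2F letters were found in 5 of 16 S-phase windows (31.3%) and 1 of 20 G2/M windows (5%), against 1.86% of all windows. These are matches of letters, not measured sites.

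In the genes themselves (GRCm38, GENCODE vM21), Mki67 lies at chr7:135689784-135716361 and encodes the Ki-67 coat protein of mitotic chromosomes. Top2a, at chr11:98992943-99024189, encodes the topoisomerase that untangles sister DNA. Mcm3, at chr1:20802968-20820312, and Mcm6, at chr1:128331590-128359664, encode subunits of the replicative helicase. Pcna, at chr2:132249162-132253314, encodes the sliding clamp of the DNA polymerases. Nusap1, at chr2:119618298-119651244, encodes a microtubule-binding protein of the spindle. All are annotated as protein-coding genes on these chromosomes, and the counts are of UMIs assigned to the gene as a whole.

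The authors sorted the microglia into 6 states, namely homeostatic (HM, 31953 cells), transitioning (TM, 2538), interferon-response (IRM, 2271), immediate early gene (IEG, 2094), disease-associated (DAM, 901) and proliferating (PM, 790, or 1.95% of microglia). The clusters were made from expression that includes the members, so levels by state are a description without a test. The median UMI count was 5796 in PM and 4366 in HM, and 21.3% of PM cells against 6.35% of HM cells had a deposited doublet score over 0.5. Without cells over this score, PM held 2953 CPM of G2/M and 1344 CPM of S-phase members, against 3524 and 1355 CPM with them. All microglia then held 80.1 CPM of G2/M members, against 112 CPM. Beyond these values, the part of doublets in the levels was not tested.

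The G2/M members were close to absent outside PM. Their summed level was 3524 CPM in PM against 17.9 CPM in HM, and lay between 21.1 CPM (IRM) and 25.7 CPM (DAM) in the other 4 states. In PM, Mki67 was at 522 CPM and Top2a at 595 CPM, against 0.157 and 0.273 CPM in HM. Bub1, a kinase of the spindle checkpoint, had 43.3 CPM in PM and 0 UMIs in all 31953 HM cells. The PM cells held 2.65% of microglial UMIs but 50.2% (Cenpa, the centromeric histone) to 99.1% (Bub1) of the microglial UMIs of each G2/M member, with a median of 89.5% over the 23 genes.

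The S-phase members behaved in another way. Their summed level was 131 CPM in HM against 1355 CPM in PM, which held a median of 26.6% of a gene's microglial UMIs, from 10.8% for Pcna to 94.6% for Rrm2, the regulated subunit of ribonucleotide reductase. Only 4 of 16 had more than 50% of their UMIs in PM, namely Rrm2, Tk1 (thymidine kinase), Uhrf1 and Cdc6 (a licensing factor), against 23 of 23 G2/M members. In HM, Mcm3 stood at 35.5 CPM, Pcna at 21.3 CPM and Tyms, the thymidylate synthase, at 16.2 CPM, and the same genes had 170.5, 99.2 and 137 CPM in PM. The ratio of PM to HM had a median of 14.5 over the S-phase members and 317 over the G2/M members, with Bub1, at 0 in HM, ranked as the highest. The 3 broad members were the least restricted, since Tubb5 (a beta-tubulin) had 259 CPM in HM against 915 CPM in PM, Hmgb2 (a chromatin protein) 60.6 and 722 CPM, and Stmn1 (a microtubule destabiliser) 26.6 and 874 CPM.

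**Figure D1:**
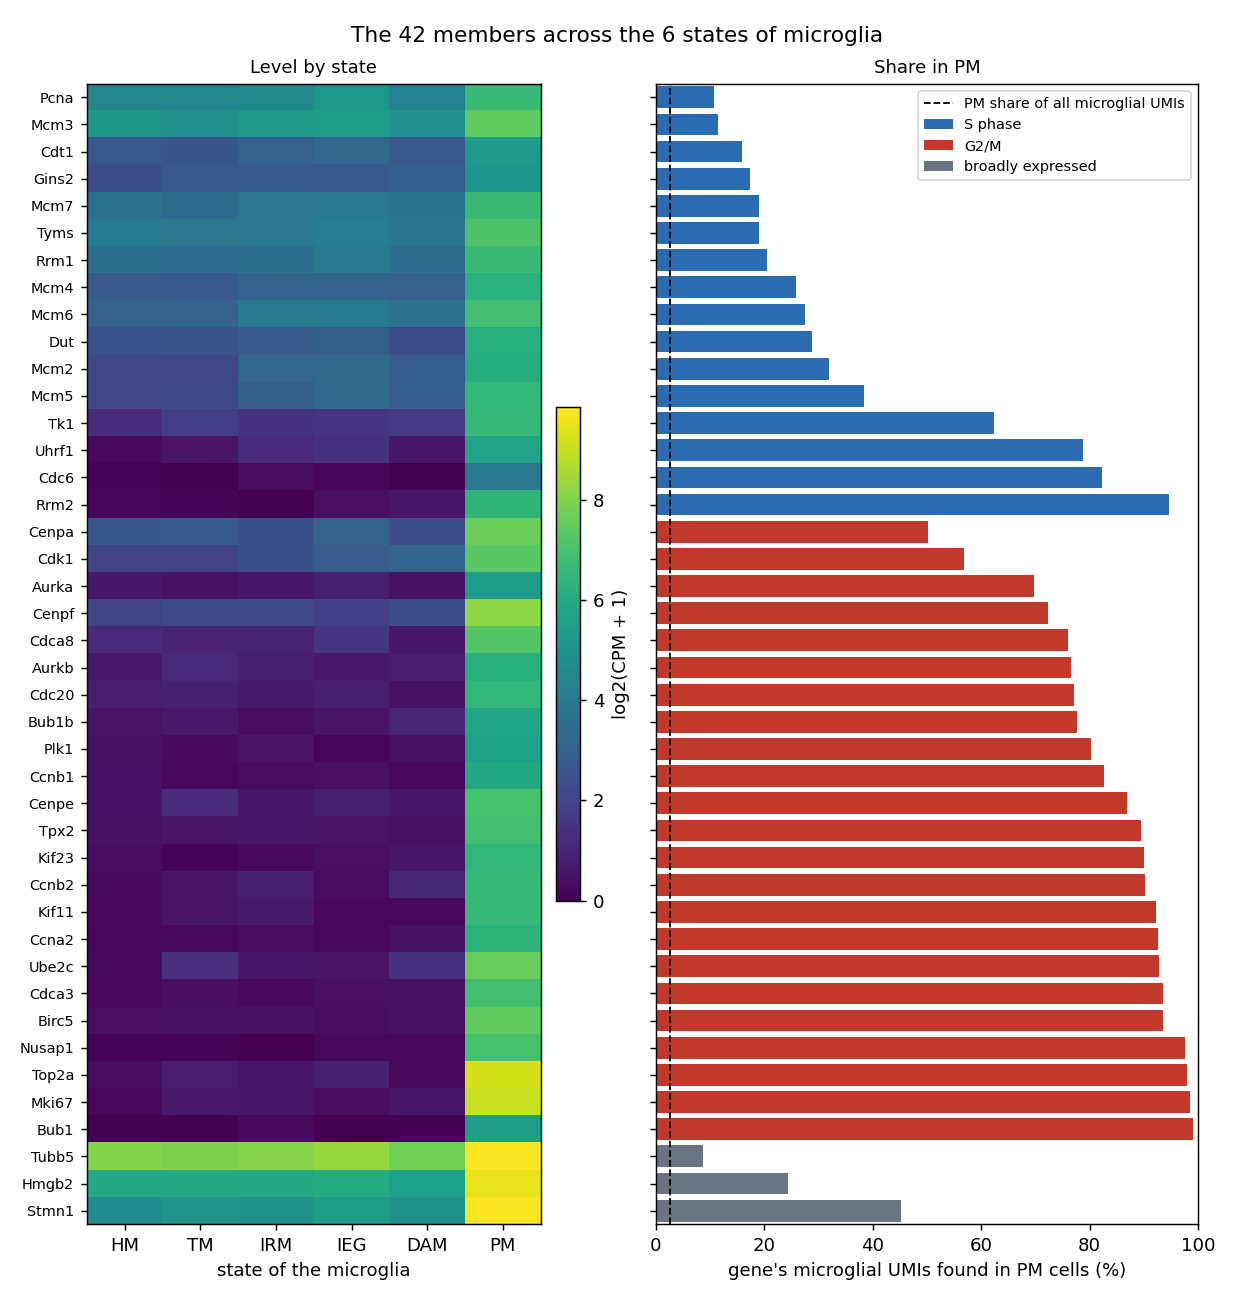
Left, the level of each of the 42 members in the 6 microglial states as colour, in log2(CPM + 1) over all cells of a state; right, bars give the percentage of each gene's microglial UMIs found in PM, and the dashed line the PM share of all microglial UMIs (2.65%). The 23 G2/M members all have bars of 50.2% or more, while most S-phase members keep visible levels in every state.

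Shares of cells gave the same picture. Mki67 had a UMI in 246 of 790 PM cells (31.1%, exact binomial 95% interval 27.9% to 34.5%) and in 17 of 31953 HM cells (0.0532%). In non-classical monocytes, taken as a type that mostly does not divide, Mki67 had a UMI in 0 of 138 cells, where a limit of 3 cells allows a share of cells with a UMI of up to 2.17%. Top2a had a UMI in 31.0% of PM, 0.119% of HM and 5 of 138 (3.62%) non-classical monocytes. Mcm3 had a UMI in 58.5% of PM cells, but also in 14.3% of HM cells and 13.0% of non-classical monocytes at similar shares. These shares are at full depth, with median UMI counts of 5796 in PM, 4366 in HM and 5572.5 in non-classical monocytes. These intervals, and all others here, cover counting error only.

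G2/M members took 72.2% of the S-phase and G2/M UMIs of PM, against 12.1% in HM and 40.0% over all microglia. Over the 10 libraries, HM held 129 ± 7.83 CPM of S-phase members and 18.6 ± 1.97 CPM of G2/M members (mean ± SD, n = 10 here and in the next paragraph). PM held 1360 ± 283 CPM of S-phase and 3518 ± 1685 CPM of G2/M members. The G2/M level of PM thus varied widely between libraries, from 1189 CPM in WT at 6 months to 5835 CPM in Nlrp3KO APP/PS1 at 9 months, whereas its S-phase level stayed between 848 and 1880 CPM.

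Among the non-proliferating states, IEG had the highest level of S-phase members. Its summed S-phase level was 192 ± 33.8 CPM and lay above HM in 10 of 10 libraries, and its G2/M sum was 24.9 ± 5.08 CPM, above HM in 9 of 10. Single genes above HM in every library were Mcm2 (9.36 ± 3.88 against 3.23 ± 0.533 CPM), Mcm6 (15.7 ± 5.03 against 7.28 ± 1.18), Pcna (37.9 ± 6.68 against 21.9 ± 1.91) and Rrm1, the large subunit of ribonucleotide reductase (15.7 ± 3.95 against 10.4 ± 1.51). Thus 4 of 16 S-phase members and 0 of 23 G2/M members were above HM in every library, against 6% of 12459 genes with a UMI in every library, and G2/M members at levels near 0 could hardly reach such a count. These counts stayed at 4 and 0 without cells over the doublet limit. IRM had 160 ± 27.4 CPM of S-phase members, above HM in 9 of 10 libraries, with Mcm6 alone above HM in all 10 (15.3 ± 4.91 CPM), against 4.25% of genes, and no member once cells over the doublet limit were left out. The summed level of the 6 MCM genes was 98.8 ± 21.1 CPM in IEG, 89.2 ± 18.8 CPM in IRM and 64.7 ± 7.45 CPM in HM. No member lay above HM in every library in TM or DAM, where the S-phase sum of DAM was 129 ± 40.5 CPM and its G2/M sum 22.4 ± 14.5 CPM. The share of all genes was not computed for TM and DAM, so this count has no background. DAM held 901 cells in all, and its sums ran over libraries from 63.7 to 208 CPM (S-phase) and from 0 to 44.1 CPM (G2/M). A member could hardly lie above HM in every library there, and no lack of a rise is read from the count.

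The cells labelled PM were not alike. Of the 790, 390 (49.4%, exact 95% interval 45.8% to 52.9%) had no UMI of any G2/M member, 149 (18.9%) had 1 to 4, and 251 (31.8%, 28.5% to 35.1%) had 5 or more. These are ranges of a count, not types, and 35 cells lay at 3 to 6 UMIs around the upper limit. Their median UMI counts were 5330, 5600 and 7225, and 15.1%, 20.1% and 31.5% had a doublet score over 0.5. Only 18 PM cells had no UMI of either an S-phase or a G2/M member, and 239 had under 5 in all.

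The PM cells without a G2/M UMI carried the MCM genes. Their MCM sum was 648 CPM, against 547 CPM in the cells with 5 or more G2/M UMIs and 66.8 CPM in HM, and it ranged from 481 to 814 CPM over the libraries. Mcm2 stood at 76.1 CPM in the cells without and 44.0 CPM in the cells with 5 or more G2/M UMIs, Mcm3 at 188 and 135 CPM, Mcm5 at 88.3 and 87.6 CPM, and Mcm7 at 86.0 and 120.4 CPM. Helicase transcripts were therefore at similar levels in both ranges, with MCM sums of 325 to 765 CPM over the libraries in the latter.

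The genes of nucleotide supply differed more between the ranges. Their sum was 110 CPM in the cells without a G2/M UMI, 1022 CPM in those with 5 or more and 32.9 CPM in HM. Rrm2 was at 0.91 and 213 CPM, Tk1 at 8.60 and 210 CPM and Tyms at 37.6 and 278 CPM. Uhrf1 was at 10.9 and 106 CPM, and Pcna at 47.1 and 154 CPM. Of the broad members, Stmn1 was at 140 CPM in the cells without a G2/M UMI, 1894 CPM in those with 5 or more and 26.6 CPM in HM, and Hmgb2 at 146, 1567 and 60.6 CPM. Against HM, the cells without a G2/M UMI had 5.31 (Mcm3) to 27.0 (Mcm5) times the level of the MCM genes, 6.25 times that of Tk1, 5.28 times that of Stmn1, 2.41 times that of Hmgb2, 2.32 times that of Tyms and 2.21 times that of Pcna. The PM label thus joined cells with MCM levels near those of the other range, but with less Rrm2, Tk1, Tyms and Stmn1, to cells with 5 or more G2/M UMIs. In the latter Mki67 was at 1306 CPM and Top2a at 1482 CPM, which follows from the cut, since both are G2/M members. The PM cluster was made from expression that includes the S-phase members. The MCM levels of its cells without a G2/M UMI are therefore a description and no test.

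**Figure D2:**
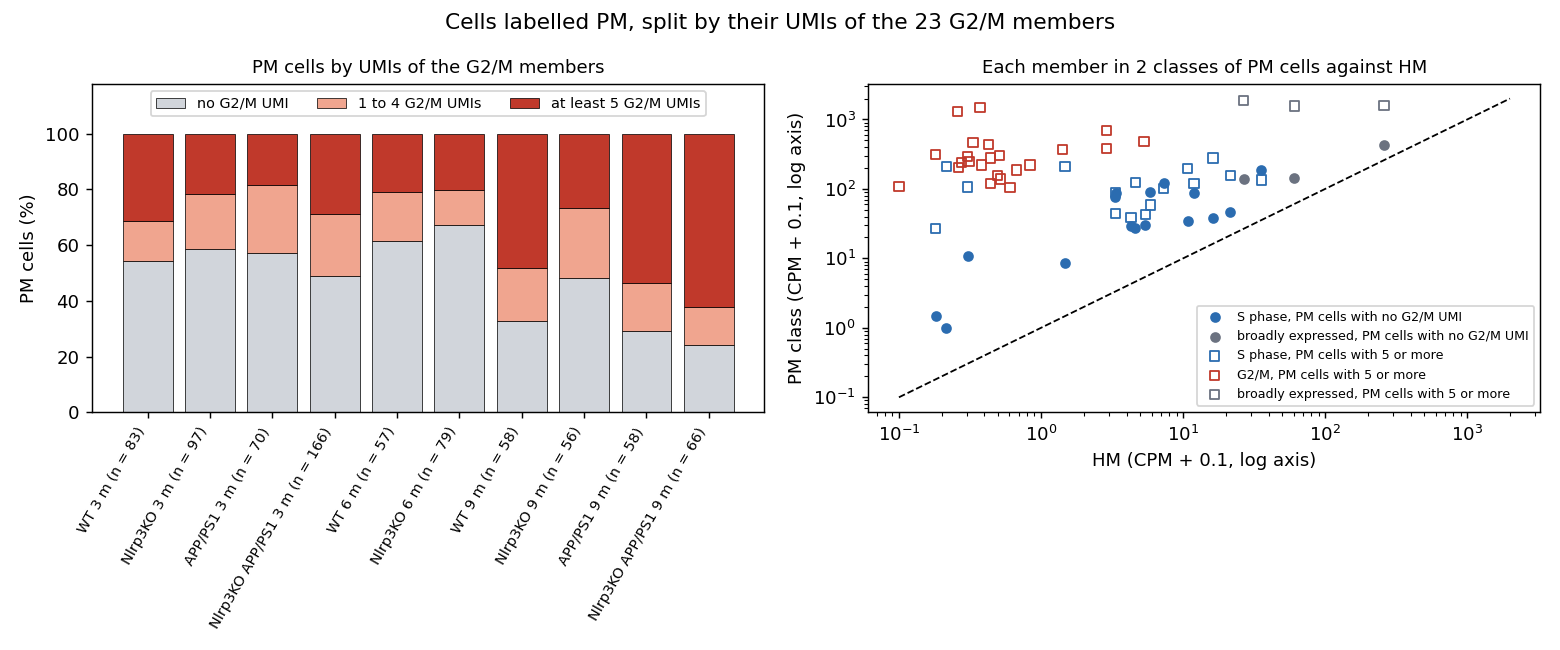
Left, the percentage of PM cells of each library with no, 1 to 4, and 5 or more G2/M UMIs; right, the level of each member in 2 ranges of PM cells (vertical, CPM + 0.1, log axis) against its level in HM (horizontal, same scale), with a dashed line of equality. The share with 5 or more runs from 18.6% to 62.1%, and the MCM genes lie above the line in both ranges.

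The mix of these cells differed between libraries. PM cells with 5 or more G2/M UMIs were 31.3% in WT, 21.6% in Nlrp3KO, 18.6% in APP/PS1 and 28.9% in Nlrp3KO APP/PS1 at 3 months. At 6 months they were 21.1% in WT and 20.3% in Nlrp3KO. At 9 months they were 48.3% in WT, 26.8% in Nlrp3KO, 53.4% in APP/PS1 and 62.1% in Nlrp3KO APP/PS1. The 3 highest shares were thus all at 9 months, and the fourth library of that age, Nlrp3KO, lay among the younger ones. These shares rest on 12 to 48 such cells per library.

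Microglial identity genes were lower in the PM cells with 5 or more G2/M UMIs. The purinergic receptor P2ry12 was at 1406 CPM there, against 3586 CPM in PM cells without a G2/M UMI and 3495 CPM in HM, and was lower than in the PM cells without a G2/M UMI in 10 of 10 libraries. Tmem119 was at 1260 CPM against 1752 and 1676 CPM, lower in the same comparison in 10 of 10. Sall1, a transcription factor of microglia, was at 292 CPM against 390 and 395 CPM, lower than in the PM cells without a G2/M UMI in 9 of 10 libraries. Cst7 and Apoe, 2 genes of disease-associated microglia looked at after other values were seen, were at 297 against 20.4 CPM and 1003 against 221 CPM in the cells with 5 or more and in those without a G2/M UMI, the former higher in 9 of 10 libraries for each gene. Over libraries, Cst7 ran from 0 to 910 CPM in the former and from 3.69 to 94.4 CPM in the latter. Apoe ran from 179 to 1955 CPM and from 59.4 to 385 CPM. The pooled levels mix genotypes and ages in unlike parts, and the part of this mix was not tested.

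Markers of most other cell types lay far below the level of their own type in the PM cells with 5 or more G2/M UMIs, but the sums for monocytes and border macrophages were higher there than in the PM cells without a G2/M UMI. The summed level of the 4 T cell markers was 1.96 CPM (0 to 13.7 over libraries, 1 of 4 genes at 0) against 3652 CPM in T cells, and that of the 3 NK markers 0.979 CPM, with 2 of 3 at 0. The monocyte markers Ly6c2, Ccr2 and Plac8 summed to 64.6 CPM (0 to 266, none at 0) against 9.51 CPM in the PM cells without a G2/M UMI and 6092 CPM in monocytes. Most of that sum was Ccr2 at 42.6 CPM (up to 216 CPM in 1 library), which was higher than in the cells without a G2/M UMI in 4 libraries and lower in 6, while Ly6c2 was higher in 3 and Plac8 in 8 of 10. Those of border macrophages summed to 31.8 CPM (0 to 98.4, Lyve1 at 0) against 5.89 and 2735 CPM, and Mrc1 among them was higher than in the cells without a G2/M UMI in 8 of 10 libraries. The part of these markers in the lower identity genes was not tested. The 3 B cell markers summed to 39.1 CPM (Ms4a1 at 0), nearly all from Cd79b at 38.7 CPM, which HM cells also held at 46.7 CPM. The 3 markers of type 2 innate lymphoid cells summed to 58.7 CPM (none at 0) against 72.0 CPM in the cells without a G2/M UMI and 2279 CPM in their own type. The dendritic cell markers summed to 1051 CPM against 1980.3 CPM in dendritic cells, nearly all from Siglech at 1049 CPM, which HM cells held at 1856 CPM, with Cd209a at 0.

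The 2 annotations the authors deposited, one of microglia and one of all CD45+ cells, named partly different PM cells. In 662 cells both gave the label, and these held 1486 CPM of S-phase and 4074 CPM of G2/M members. The 128 cells that only the microglial annotation called PM held 541 and 110 CPM, and the 108 that only the other annotation called PM held 603 and 75.7 CPM. Both sets of cells in dispute thus lay above HM, at 131 CPM of S-phase and 17.9 CPM of G2/M members. They also lay below the cells with both labels.

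To look for dividing cells outside PM at equal depth, each microglial cell was thinned to 1500 UMIs. With 3 or more UMIs of the S-phase and G2/M members, 511 of 40547 microglia (1.26%) remained, of which 357 (69.9%) were PM and 154 lay outside it. Of the 154, 87 were HM, 25 IRM, 25 IEG, 11 TM and 6 DAM, 14 had a doublet score over 0.5 and 13 were PM in the annotation of all cells. Such cells made up 45.2% of PM (exact 95% interval 41.7% to 48.7%), 1.19% of IEG, 1.1% of IRM, 0.666% of DAM, 0.433% of TM and 0.272% of HM. Without thinning the shares were 85.9% of PM, 14.8% of IEG, 10.9% of DAM, 8.06% of IRM, 5.95% of TM and 4.67% of HM. In cells, these were 679 in PM against 1491 in HM and 310 in IEG, so that at full depth most cells with 3 or more UMIs lay outside PM.

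Stricter rules left little outside PM. With 5 or more UMIs, 251 of 257 cells (97.7%) were PM, and with 2 or more G2/M UMIs 242 of 291 (83.2%). At this thinned depth most microglia that passed these rules were therefore labelled PM.

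Among the 4925 other CD45+ cells, all 6 dendritic cells and both border macrophages that the authors labelled as proliferating had 5 or more G2/M UMIs. Of the other types, the precursors stood highest (42 of 50, with 2209 CPM of S-phase and 2235 CPM of G2/M members), of which 25 of the 42 came from WT at 6 months. The median depth of the precursors was 23339 UMIs, far above that of microglia. Thinned to 1500 UMIs, 34 of the 50 (68.0%) had 5 or more S-phase and G2/M UMIs, against 251 of 790 PM cells (31.8%). Monocytes had 27 of 149 (18.1%), neutrophils 16 of 79 (20.3%), B cells 60 of 533 (11.3%), conventional type 2 dendritic cells 14 of 189 (7.41%) and T cells 64 of 1598 (4.01%). Median depths ran from 4671 UMIs in B cells to 12631 in neutrophils, so these shares hold no order. Thinned to 1500 UMIs, cells with 5 or more S-phase and G2/M UMIs were 15.2% of neutrophils, 10.5% of B cells, 9.40% of monocytes, 3.75% of T cells and 1.59% of conventional type 2 dendritic cells. Of the 16 such neutrophils, 11 came from Nlrp3KO APP/PS1 at 3 months, and of the 60 such B cells 19 came from Nlrp3KO at 6 months. Border macrophages had 8 of 725 (1.1%), NK cells 7 of 548 (1.28%) and non-classical monocytes 1 of 138. No such cell was found among 204 NKT cells, 157 type 2 innate lymphoid cells and 102 plasmacytoid dendritic cells. Once these cells were set aside, the G2/M sum of the remaining cells was 62.0 CPM in T cells, 80.02 CPM in B cells and 72.3 CPM in monocytes, still above the 17.9 CPM of HM.

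Across libraries, the G2/M level of microglia varied widely, and little of that range was left without the cells labelled PM. The G2/M sum over all microglia was 63.1 CPM in WT, 74.3 in Nlrp3KO, 64.4 in APP/PS1 and 125 CPM in Nlrp3KO APP/PS1 at 3 months. It was 42.3 CPM in WT (exact Poisson 95% interval 39.2 to 45.5) and 89.2 CPM in Nlrp3KO at 6 months. At 9 months it was 220.1 CPM in WT, 104 in Nlrp3KO, 247 in APP/PS1 and 336 CPM in Nlrp3KO APP/PS1 (324 to 348). The level of WT was thus lowest at 6 months and highest at 9 months, without a steady course over the 3 ages, and Nlrp3KO at 9 months lay below Nlrp3KO APP/PS1 at 3 months. Without PM the sums were 16.6 to 24.2 CPM in all 10 libraries. The clusters were made from expression that includes these genes, so the narrow range without PM is a description and no test. In such sums over a library, more cells of a state and more RNA per cell cannot be told apart, and UMIs of 1 cell are not independent, so that the Poisson intervals are narrower than the error.

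The S-phase sum moved less. It was 156 CPM in WT, 166 in Nlrp3KO, 181 in APP/PS1 and 173 CPM in Nlrp3KO APP/PS1 at 3 months, 148 CPM in WT and 135 CPM in Nlrp3KO at 6 months, and 182, 174, 206 and 208 CPM in the 4 genotypes at 9 months. Without PM it was 116 to 150 CPM. The part of G2/M members in the S-phase and G2/M UMIs therefore ran from 22.2% in WT at 6 months to 61.8% in Nlrp3KO APP/PS1 at 9 months.

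**Figure D3:**
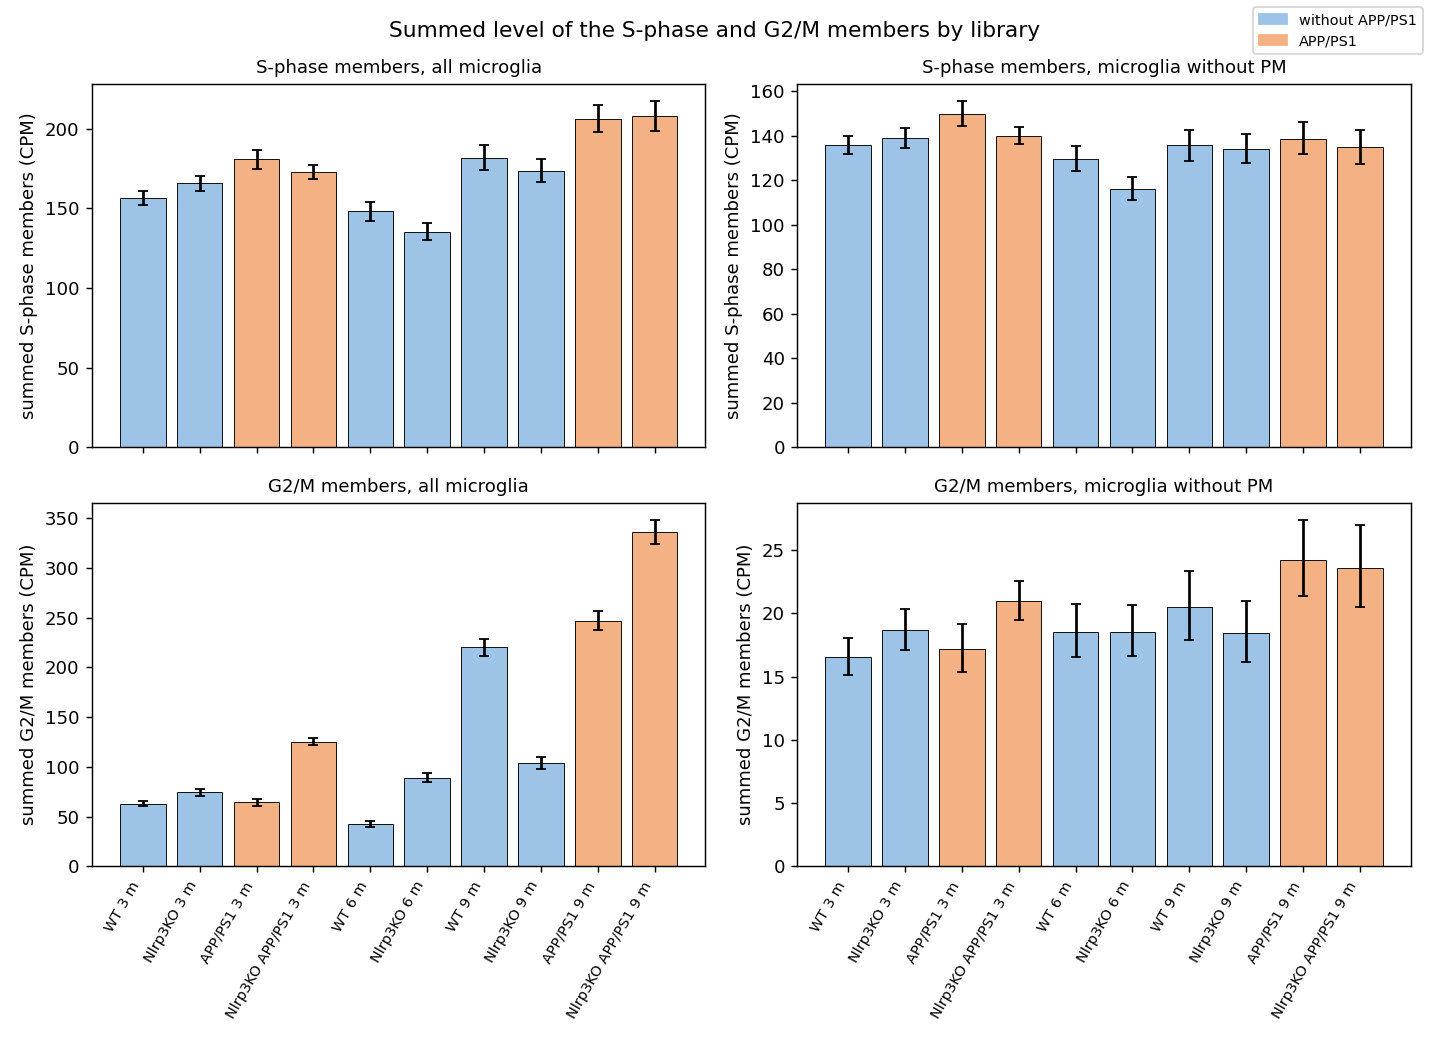
Summed level of the S-phase and of the G2/M members in CPM (vertical axis) in each of the 10 libraries, over all microglia and without PM; bars show the level with exact Poisson 95% intervals, orange for APP/PS1 genotypes and blue for those without the transgenes. The G2/M bars run from 42.3 to 336 CPM over all microglia and from 16.6 to 24.2 CPM without PM.

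Ages of 9 and 3 months were compared in 4 pairs of the same genotype. The median mitochondrial percent of microglia was 2.35 to 3.16 in the 3-month and 3.39 to 3.67 in the 9-month libraries. The median ribosomal percent was 7.56 to 8.15 and 9.17 to 10.3. Neither overlapped between these ages, and their part in the differences was not tested. The G2/M sum was higher at 9 months in 4 of 4 pairs, by a log2 ratio of 1.41 ± 0.66 (mean ± SD, n = 4), with 1.80 in WT, 0.48 in Nlrp3KO, 1.94 in APP/PS1 and 1.42 in Nlrp3KO APP/PS1. The S-phase sum was higher by 0.18 ± 0.08, also in 4 of 4. The share of microglia labelled PM was higher by 0.976 ± 0.657 percentage points and that of thinned microglia with 3 or more S-phase and G2/M UMIs by 1.11 ± 0.643 points, each in 4 of 4 pairs. PM cells made up 1.15%, 1.63%, 2.27% and 2.02% of the microglia of WT, Nlrp3KO, APP/PS1 and Nlrp3KO APP/PS1 at 3 months, 1.63% and 2.16% of WT and Nlrp3KO at 6 months, and 2.46%, 2.08%, 2.68% and 3.76% of the 4 genotypes at 9 months.

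Gene by gene, 41 of the 42 members passed the filter on low counts, and Cdc6 did not. In edgeR's quasi-likelihood test with the genotype as a block and Benjamini-Hochberg adjustment over all 12007 genes, 26 members were called higher at 9 months (adjusted p under 0.05 and a log2 fold change over 1), against a background of 2.83% of all genes tested. They were 22 of 23 G2/M members, 3 of 15 tested S-phase members (Tk1, Uhrf1 and Rrm2) and Stmn1. By adjusted p alone, 23 G2/M, 6 S-phase and 3 broad members were higher, against 12.6% of all genes, and 22, 9 and 3 were higher in every pair, against 14.9%. None was called lower. The median log2 fold change was 1.55 over the G2/M members, 0.29 over the S-phase members and 0.39 over the broad ones, against 0.00 over all genes.

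Top2a was at 8.72, 9.23, 8.46 and 16.3 CPM in WT, Nlrp3KO, APP/PS1 and Nlrp3KO APP/PS1 at 3 months, at 4.47 and 11.6 CPM in WT and Nlrp3KO at 6 months, and at 35.1, 15.6, 38.2 and 58.8 CPM in the 4 genotypes at 9 months. The age groups overlapped only through Nlrp3KO, whose 9-month value lay below the highest 3-month value. The log2 fold change was 1.81 (SE 0.22, edgeR adjusted p = 0.0040). Mki67, in the same order of libraries, was at 7.57, 8.66, 8.78 and 16.8 CPM, at 2.999 and 11.003 CPM, and at 28.4, 10.4, 31.2 and 46.4 CPM. It rose by 1.49 on the log2 scale (SE 0.25, adjusted p = 0.0095), with the same overlap by the Nlrp3KO library.

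Of the spindle genes, Nusap1 was at 1.05, 1.75, 1.83 and 2.42 CPM at 3 months, 0.9997 and 3.65 CPM at 6 months, and 8.20, 5.34, 9.61 and 10.9 CPM at 9 months. No 9-month library overlapped a 3-month library, and the log2 fold change was the largest of all members, 2.36 (SE 0.21, adjusted p = 0.00185). Kif11, the motor that separates the spindle poles, was at 1.36 to 3.19 CPM at 3 months, 0.823 and 2.38 CPM at 6 months, and 5.82, 3.79, 6.80 and 6.73 CPM at 9 months (log2 fold change 1.68, SE 0.19, adjusted p = 0.00352). Kif23, a motor of cytokinesis, was at 1.33, 2.04, 1.52 and 2.65 CPM at 3 months, 0.706 and 1.49 CPM at 6 months, and 5.47, 3.17, 5.71 and 8.55 CPM at 9 months (1.66, SE 0.24, adjusted p = 0.00641). The 3- and 9-month libraries did not overlap for either gene.

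Of the mitotic kinases and cyclins, Ccnb2, a cyclin partner of Cdk1, was at 1.08, 1.54, 1.93 and 3.53 CPM at 3 months, 0.941 and 2.43 CPM at 6 months, and 5.47, 3.48, 5.62 and 10.2 CPM at 9 months. Its log2 fold change was 1.72 (SE 0.19, adjusted p = 0.00346). Aurkb, the kinase of the passenger complex, was at 1.58, 1.43, 0.993 and 2.85 CPM at 3 months, 1.18 and 1.88 CPM at 6 months, and 5.91, 2.48, 5.80 and 8.44 CPM at 9 months (1.77, SE 0.26, adjusted p = 0.00612). Both genes overlapped between the ages through the Nlrp3KO library at 9 months. Cdk1 itself rose by 1.05 (SE 0.26, adjusted p = 0.0313) but was higher in 3 of 4 pairs, since Nlrp3KO went from 6.44 CPM to 5.73 CPM.

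Cdca3, which promotes mitotic entry, was at 1.45, 1.61, 1.99 and 3.99 CPM at 3 months, 1.06 and 2.49 CPM at 6 months, and 6.70, 2.79, 7.52 and 12.1 CPM at 9 months (log2 fold change 1.75, SE 0.22, adjusted p = 0.00452). Ube2c, the ubiquitin-conjugating enzyme of the anaphase-promoting complex, was at 2.54, 3.01, 2.98 and 6.61 CPM, then 1.12 and 4.26 CPM, then 11.6, 4.65, 12.1 and 18.0 CPM (1.68, SE 0.24, adjusted p = 0.00601). For both, the Nlrp3KO library at 9 months again fell within the 3-month range. Bub1 was at 0.470 to 1.11 CPM at 3 months and 3.09, 0.929, 3.17 and 3.95 CPM at 9 months, and at 0.0588 CPM in WT at 6 months, below the limit of 0.176 CPM that 3 UMIs stand for in that library (2.04, SE 0.35, adjusted p = 0.00982). Cenpa was the only G2/M member past the adjusted p and not past the fold limit (0.95, SE 0.21, adjusted p = 0.0210).

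Of the S-phase members, 3 were called. Tk1 was at 2.97, 2.72, 3.19 and 4.13 CPM at 3 months, 2.82 and 2.54 CPM at 6 months, and 6.44, 4.03, 7.61 and 8.98 CPM at 9 months, and rose by 1.11 on the log2 scale (SE 0.15, adjusted p = 0.00556). Rrm2 rose by 1.503 (SE 0.32, adjusted p = 0.0187), with 1.21 to 2.68 CPM at 3 months and 2.91, 2.32, 6.62 and 8.66 CPM at 9 months, and Uhrf1 by 1.21 (SE 0.25, adjusted p = 0.0168). Pcna rose by less, from 21.8 to 24.8 CPM at 3 months to 29.8, 26.3, 29.6 and 29.5 CPM at 9 months without overlap (0.42, SE 0.07, adjusted p = 0.00847).

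None of the 6 MCM genes passed the test. Mcm6 came nearest, with 10.4, 10.3, 14.2 and 10.3 CPM at 3 months and 11.1, 12.2, 15.6 and 13.3 CPM at 9 months (log2 fold change 0.29, SE 0.09, adjusted p = 0.0506). Mcm3 had the opposite sign, with 40.1, 43.1, 44.5 and 44.0 CPM at 3 months, 32.6 and 29.4 CPM at 6 months, and 38.4, 35.8, 36.9 and 35.3 CPM at 9 months, lower at 9 months in 4 of 4 pairs (-0.15, SE 0.05, adjusted p = 0.0965). Of all genes tested, 34.8% were likewise lower at 9 months in every pair. The remaining values of the licensing factors were also small, such as 0.13 for Cdt1 (adjusted p = 0.392), and Dut, which clears dUTP, had 0.14 (adjusted p = 0.681).

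All 3 broad members rose. Stmn1 was at 35.5, 40.3, 38.3 and 52.3 CPM at 3 months, 38.1 and 42.1 CPM at 6 months, and 86.3, 54.3, 85.6 and 114 CPM at 9 months (log2 fold change 1.09, SE 0.14, adjusted p = 0.00454). Tubb5 was at 257 to 268 CPM at 3 months and 346, 313, 298 and 308 CPM at 9 months (0.35, SE 0.05, adjusted p = 0.00655). Hmgb2 was at 64.1 to 77.9 CPM at 3 months and 88.7, 77.9, 84.3 and 110.3 CPM at 9 months (0.39, SE 0.09, adjusted p = 0.0260). Stmn1 and Tubb5 did not overlap between these ages.

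The calls with age were lost when the PM cells were left out. These cells were clustered on expression that includes the members and hold most UMIs of each G2/M member. The loss is therefore a description and no test. Without the PM cells, 21 members passed the filter (13 S-phase, 5 G2/M, 3 broad) and 0 were called higher by edgeR, against 1.94% of 11869 genes. By adjusted p alone Tubb5 (log2 fold change 0.23, adjusted p = 0.0330) and Pcna (0.24, adjusted p = 0.0422) were higher, against 11.8% of genes, and Mcm3 was lower (-0.19, adjusted p = 0.0488). The sums without PM, taken from raw CPM without the scaling of the test, differed by -0.06 ± 0.05 (S-phase, 0 of 4 pairs higher) and 0.24 ± 0.21 (G2/M, 3 of 4). In the scaled fit without PM, 10 of 13 S-phase members were above 0, with a median of 0.075. The S-phase sum therefore gives no clear direction.

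Within PM, the mix also differed with age. In the PM cells alone, 13 members were called higher at 9 months, against 1.40% of 6952 genes, namely 11 G2/M members, Pcna (log2 fold change 1.07) and Stmn1 (1.23). By adjusted p alone 19 of 23 G2/M members and 4 S-phase members (Pcna, Rrm1, Tyms and Uhrf1) were higher, against 3.91% of genes. Nusap1 had 1.65, Top2a 1.06 and Mki67 0.71 (adjusted p = 0.0234), while the MCM genes lay between -0.44 (Mcm2) and 0.26 (Mcm7), with Mcm3 at -0.33 (adjusted p = 0.176). PM cells of 9 months thus held more mitotic transcripts than those of 3 months, while no MCM gene passed the test.

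The count of 26 fell to 17 without cells over the doublet limit (background 2.20%), to 11 without the APP/PS1 pair (background 1.63%) and to 13 without the Nlrp3KO APP/PS1 pair (background 1.35%), whereas it was 26 in DESeq2. The G2/M median was 1.29 without cells over the doublet limit and 1.42 and 1.58 without these pairs, against 1.55 in the full comparison. Since the share of cells over the doublet limit was itself highest in the PM cells with the most G2/M UMIs, its part in the difference was not tested.

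APP/PS1 and non-diseased libraries were compared in 4 pairs of the same age and Nlrp3 genotype, over the same 8 libraries as the ages. The G2/M sum was higher in APP/PS1 in 4 of 4 pairs, but by uneven amounts, with log2 ratios of 0.03 and 0.75 at 3 months (WT and Nlrp3KO background) and of 0.17 and 1.70 at 9 months. The mean was 0.66 ± 0.76 (SD, n = 4), less than its spread. Without cells over the doublet limit it was 1.096 ± 0.827, again higher in 4 of 4 pairs, beside 1.084 ± 0.719 for 9 against 3 months in the same cells. The S-phase sum was higher by 0.18 ± 0.08 in 4 of 4 pairs, the PM share by 0.850 ± 0.677 percentage points and the thinned share by 0.682 ± 0.832 points, each in 4 of 4.

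No member was called between APP/PS1 and non-diseased microglia by edgeR, or by DESeq2, against backgrounds of 0.025% and 0.117% of the 12007 genes. At an unadjusted p under 0.05, 12 G2/M, 7 S-phase and 1 broad member were higher, against 4.94% of genes, and 10 G2/M and 9 S-phase members were higher in every pair, against 8.38%. The median log2 fold change was 0.65 over the G2/M members, 0.28 over the S-phase members and 0.21 over the broad ones.

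The highest values were for Cdca3 (1.03, SE 0.31, adjusted p = 0.549) and Ccnb2 (0.93, SE 0.25, adjusted p = 0.490) among G2/M members and for Rrm2 (0.95, SE 0.29, adjusted p = 0.549) and Uhrf1 (0.54, adjusted p = 0.700) among S-phase members in the edgeR test. The lowest were Plk1, a mitotic kinase (0.34, adjusted p = 0.733), and Ccna2, the cyclin of S phase and early mitosis (0.37, adjusted p = 0.774), then Mcm3 (0.05, adjusted p = 0.825) and Rrm1 (-0.03, adjusted p = 0.927). Mki67 had 0.87 (SE 0.31, adjusted p = 0.636, higher in 4 of 4 pairs) and Top2a 0.73 (SE 0.29, adjusted p = 0.675, higher in 3 of 4). All 23 G2/M members had a value above 0, against 51.5% of all genes, and none passed the adjustment. Without cells over the doublet limit the G2/M median was 1.08 and 20 of 23 were higher at the unadjusted limit, against 5.07% of 11862 genes, with 0 called. Without the Nlrp3KO pair at 9 months the G2/M median was 0.31. It was 0.21 in the PM cells alone and, over the 5 G2/M members that then passed the filter, 0.049 without PM.

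Nlrp3KO and Nlrp3WT libraries were compared in 5 pairs of the same age and APP/PS1 background. The G2/M sum gave log2 ratios of 0.24 and 0.96 at 3 months (non-diseased and APP/PS1), 1.08 at 6 months, and -1.09 and 0.44 at 9 months, with a mean of 0.33 ± 0.86 (SD, n = 5). The S-phase sum gave -0.03 ± 0.08, higher in 2 of 5 pairs, and the PM share differed by 0.292 ± 0.605 percentage points. The differences pointed both ways, and the mean was smaller than its spread.

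No member was called with Nlrp3 by edgeR or DESeq2, against 0.0166% and 0.0498% of 12048 genes. At an unadjusted p under 0.05, Rrm2 alone was higher (log2 fold change 0.48, SE 0.19, edgeR adjusted p = 0.899), against 2.37% of genes. None was higher in every pair, against 3.31%. Pcna alone was lower in 5 of 5 pairs (-0.10, adjusted p = 0.899), against 3.88% of genes. The other ends of the range were Ccnb2 (0.56, adjusted p = 0.899), Cenpe, a kinetochore motor (0.49, adjusted p = 0.900), Ccnb1 (0.02) and Aurka (-0.09) among G2/M members, and Mcm4 (0.16), Mcm6 (-0.15) and Cdt1 (-0.12) among S-phase members. Mki67 had 0.37 (adjusted p = 0.926) and Top2a 0.33 (adjusted p = 0.919), each higher in 4 of 5 pairs, the exception being the WT and Nlrp3KO pair at 9 months. Without that pair the G2/M median was 0.63, against 0.31 with all pairs, and 19 of 23 G2/M members were higher at the unadjusted limit, against 3.27% of genes, with a smallest edgeR adjusted p of 0.149. The G2/M median was 0.15 without the 6-month pair and 0.14 without the APP/PS1 pair at 3 months.

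**Figure D4:**
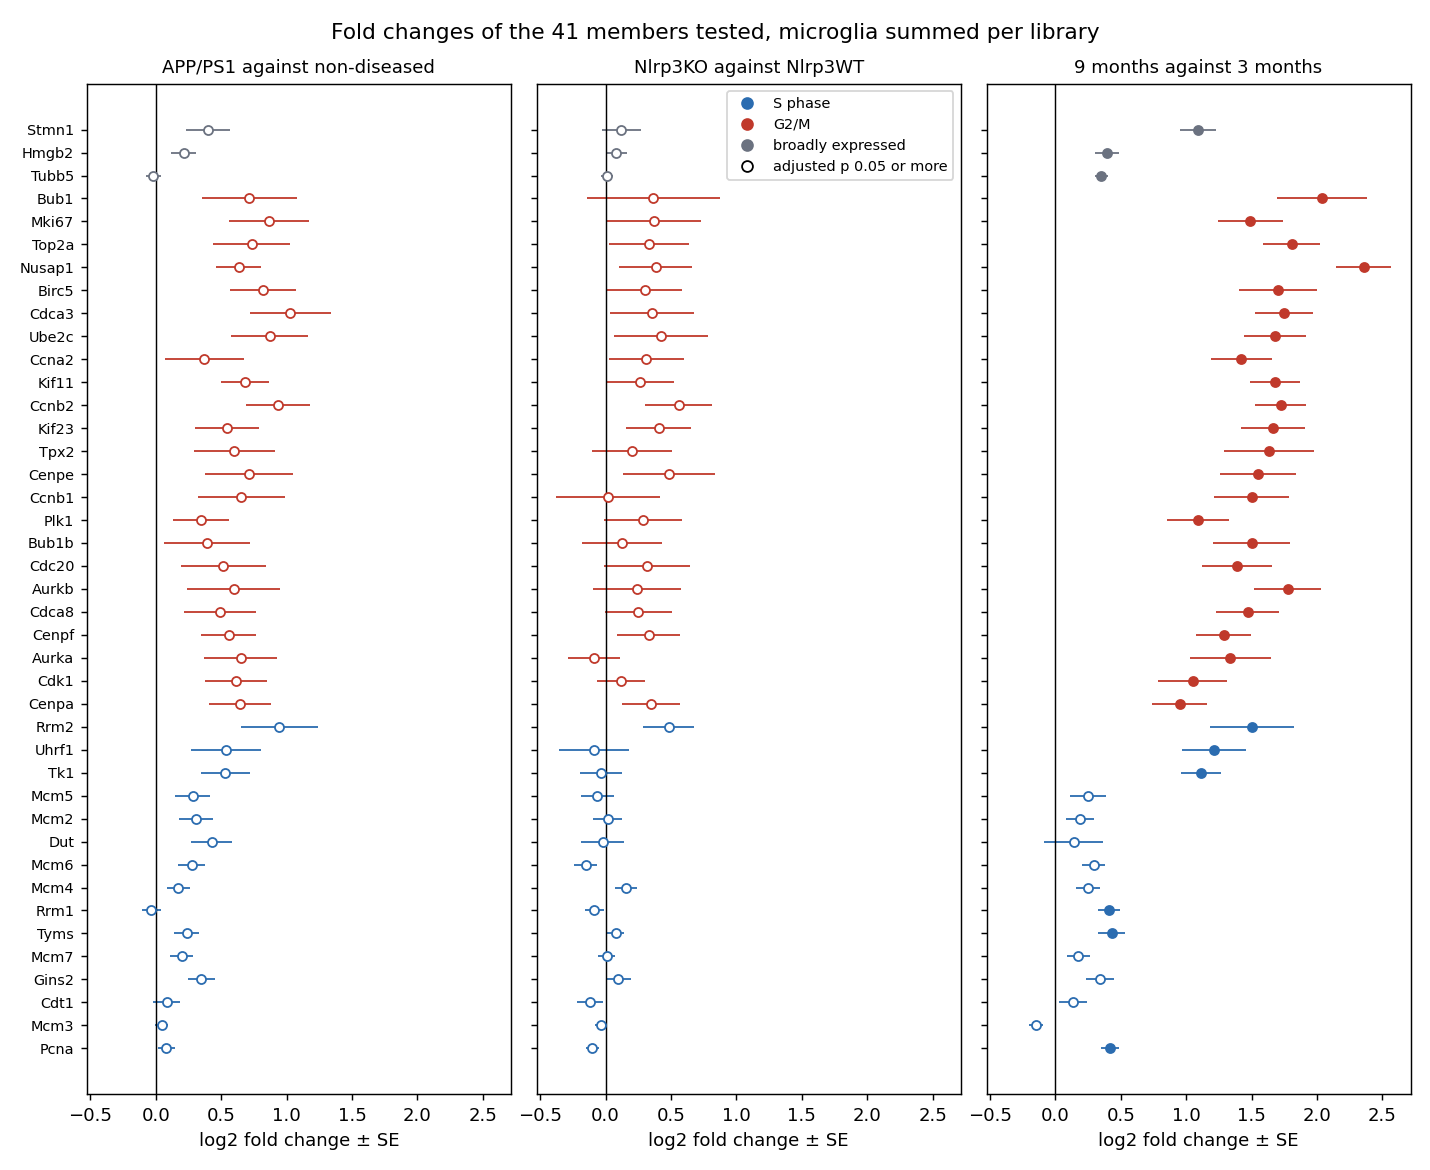
Log2 fold changes (horizontal axis, edgeR, bars are standard errors) of the 41 members tested, for 9 against 3 months, APP/PS1 against non-diseased and Nlrp3KO against Nlrp3WT microglia; filled points have an adjusted p under 0.05. Filled points appear only for age, where G2/M members run from 0.95 (Cenpa) to 2.36 (Nusap1).

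Whether the APP/PS1 difference itself differed between 9 and 3 months was tested as an interaction. No member and no gene passed the adjusted p in edgeR (background 0%), and 5 members passed the unadjusted limit, against 4.78% of genes. They were Rrm2 (log2 value 1.30), Dut (0.70), Tyms (0.38), the spindle pole kinase Aurka (1.13) and Cdk1 (0.98), and the smallest adjusted p of a member was 0.884. In DESeq2, 7 genes and 0 members passed. Without the pair of WT background at 9 months, 10 members passed the adjusted p with 116 genes in all, in a fit that leaves a single pair at that age.

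Genes of the cell cycle outside the 42 were read from lists of their own. With age, 28 of 39 tested further G2/M genes were called higher, against 2.83% of all genes, with a median of 1.52, among them Pbk (2.12), Ttk (2.12), Nuf2 (2.002) and Racgap1 (1.67). Of 30 further S-phase genes, 5 were called and 9 passed the adjusted p, against 2.83% and 12.6% of all genes, including Chaf1b (1.43) of chromatin assembly, the checkpoint adaptor Clspn (1.25), Dtl (1.24), which directs the destruction of Cdt1, the nuclease Exo1 (1.07) and Lig1 (0.53), the ligase of the lagging strand. Of 15 tested genes in a list of G1 regulators and E2F factors, 4 were called, against 2.83% of all genes. They were the E2F factors E2f8 (1.71) and E2f7 (1.67) and the cyclins Ccne2 (1.43) and Ccne1 (1.32), while Ccnd1 had 0.32.

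Of 16 genes in a list of inhibitors, which also held Lin9, Lin37 and Lin54, 2 were called higher at 9 months. They were Cdkn1a, which encodes p21, and Cdkn2a, against the same 2.83% of all genes. Cdkn1a had a mean of 45.5 CPM at 9 months and 17.7 CPM at 3 months (log2 fold change 1.41, edgeR adjusted p = 0.00336), and Cdkn2a had 1.33. Rb1, the retinoblastoma gene, fell by 0.70 on the log2 scale, from 46.4 to 27.0 CPM, in 4 of 4 pairs. This was the largest fall in the list. Rb1 was not called, since its change lay within the fold limit, and 34.8% of all genes were lower at 9 months in every pair. By edgeR adjusted p alone, 3 genes of the list passed, 2 of them higher, against 23.2% of all genes in either direction. Cdkn1a was also concentrated in PM, at 296 CPM against 12.5 CPM in HM, with 32.5% of its microglial UMIs there, and Cdkn2c was at 106 against 6.94 CPM. PM held a median of 75.6% of the UMIs of the further G2/M genes and 22.9% of those of the further S-phase genes. The median was 16.6% for the G1 regulators and E2F factors and 3.65% for the list of inhibitors. It was 2.21% for 4 growth factor and receptor genes (Csf1, Il34, Csf1r and Tgfb1), with Il34 at 1 UMI in all microglia. In the APP/PS1 comparison none of these lists had a gene past the edgeR adjusted p, with Csf1, a growth factor of microglia, at 0.85 (adjusted p = 0.346 in edgeR and 0.00399 in DESeq2).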

How the data were processed

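The authors sorted CD45+ cells from whole brain, made 1 library from a pool of 3 mice per genotype and age (10x Genomics, 3' chemistry), and processed the reads with Cell Ranger against mm10; the Cell Ranger version is not given in the sources used here. They removed outlier cells, normalised and clustered the rest, and deposited a matrix of UMI counts per gene and cell together with metadata that hold cell labels, a mitochondrial percent, a ribosomal fraction and a doublet score (a fraction) per cell. The deposited counts were used as they are. Columns of 6897 cells under 2 condition names that match no sample were not used. Cells were taken to their library through the condition names of the metadata.

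The members and lists were chosen with earlier results of these data known. Counts were summed over the microglia of a library and tested with edgeR 4.0.16 (R 4.3.3), using the quasi-likelihood F test, TMM scaling, the default filter on low counts and the pair as a block, with Benjamini-Hochberg adjustment over all genes tested. A call needed a log2 fold change over 1 in size together with an adjusted p under 0.05. The test was checked on simulated data, and DESeq2 1.42.0 was an alternative. CPM were computed from raw sums, pair ratios of sums from these CPM without a pseudocount, and intervals as exact binomial or Poisson 95% intervals. No doublet caller was run, and cells over a deposited score of 0.5 were left out as an alternative. Cells were thinned to 1500 UMIs for the shares described as thinned; other shares of cells are at full depth. Python 3.11.15, numpy 2.4.6, pandas 2.3.3 and scipy 1.17.1 were used.

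Members given in every library were Mki67, Top2a, the 2 most abundant of each group and up to 10 per comparison past the adjusted p, by smallest p; the 2 highest and 2 lowest fold changes of the S-phase and G2/M members were named besides. Bub1, Cdk1 and Cenpa values, and the ranges of PM cells, were picked after values were seen. Reads of processed pseudogenes or near-identical copies cannot be told apart in these counts. The 6-month libraries entered the Nlrp3 comparison alone.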

Additional observations from a re-analysis of the deposited data

Results flagged for a closer look

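Of 45 values looked at, 2 were listed because the APP/PS1 libraries lay above their non-diseased partners in every pair at 1 age and below them in every pair at the other. For Mcm3, APP/PS1 minus non-diseased was 4.41 and 0.885 CPM at 3 months and -1.48 and -0.509 CPM at 9 months, so the mean differences at the 2 ages lie 3.64 CPM apart. The interaction of APP/PS1 and age was tested across all genes and gave a log2 value of -0.05 for Mcm3 (edgeR adjusted p = 0.959).

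For Tubb5, the differences were 7.84 and 8.09 CPM at 3 months and -47.6 and -5.14 CPM at 9 months, which puts the mean differences 34.4 CPM apart. The interaction gave -0.09 (edgeR adjusted p = 0.931). With 2 pairs per age, neither pattern was distinguishable from the spread between libraries.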

How the results depend on the processing

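Of the values recomputed for the main comparisons, 189 stayed within the limits set and 39 moved, and of the values of single named members under each alternative, 26 fell below the limit of their test, all with age, 1 passed it and 16 changed sign. Alternatives with the PM cells alone, or without cells called PM in either annotation, and all those of the interaction, were chosen after seeing the data. Genes called with APP/PS1 were 3, and 5 by adjusted p alone, 14 in DESeq2, 5 without the filter, 5 in PM cells alone and 0 to 9 with a pair left out. With Nlrp3 they were 2, and 4 by adjusted p alone, 6 in DESeq2, 4 in PM cells alone, 4 with additive covariates in place of the pair block and 2 to 8 with a pair left out. With age they were 2784 by adjusted p alone, 149 in PM cells alone and 243 to 436 with a pair left out, and the members called were 0 without PM (also without PM of either annotation), 17 without cells over the doublet limit, 13 in PM cells alone and 11 to 27 with a pair left out. For the interaction, 7 genes passed in DESeq2, and 0 to 457 genes with 0 to 10 members with a pair left out. The S-phase median with APP/PS1 was 0.13 without PM, 0.023 in PM alone and 0.13 without PM of either annotation; with age the S-phase median was 0.075 and 0.13, and the G2/M median 0.26 and 0.27, without PM and without PM of either annotation. The fall in members called without PM follows from leaving out the cells that hold most of their UMIs; the cause of the other moves was not tested.

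Without thinning, the share of microglia with 3 or more S-phase and G2/M UMIs differed by 2.26 points with APP/PS1, -1.30 points with Nlrp3 and 0.418 points with age. With thinning, the difference with age was 0.0960 points without PM. The S-phase sum of TM was 111 CPM in the annotation of all cells, and G2/M members took 12.4% of the S-phase and G2/M UMIs of microglia without PM.

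With APP/PS1, the sign turned in PM cells alone for Mcm3 (-0.15), Tubb5 (0.20) and Ccna2 (-0.16), and with a pair left out for Tubb5 (-0.042 to 0.036) and Rrm1 (-0.065 to 0.015). With Nlrp3 it turned in PM cells alone for Tubb5 (-0.0039) and Ccnb1 (-0.10), and with a pair left out for Tubb5 (-0.013 to 0.0497), Hmgb2 (-0.0015 to 0.14), Ccnb1 (-0.29 to 0.42) and Aurka (-0.28 to 0.042). With age it turned for Hmgb2 without PM (-0.038) and without PM of either annotation (-0.046), and for Cdt1 in PM cells alone (-0.14). The depth of 1755 to 8208 microglia per library leaves 12 to 48 PM cells with 5 or more G2/M UMIs behind each G2/M level.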
